A study of Homo sapiens with 3 samples.

Results

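The genes described here are 9 components of the NODAL pathway: the ligands NODAL and GDF3, the co-receptor TDGF1, the receptor ACVR2B, the secreted antagonists LEFTY1, LEFTY2 and CER1, the intracellular inhibitor SMAD7 and the transcription factor FOXH1. They were chosen by name from a table of 32727 genes, with earlier results of these data known, and all 9 were found in it. Single cell RNA sequencing had been carried out on NCCIT, GCT27 and 2102EP cells, 3 established lines of embryonal carcinoma (EC). Each line gave 1 library, into which 3 replicates were pooled before sequencing. A figure legend of the study instead speaks of biological duplicates, without saying what these were. The labels and most of the study's text on single cells name NCCIT. A passage on the same data names NT2/D1 in its place, so which of these lines was sequenced is uncertain. EC is a malignant germ cell tumor whose cells resemble pluripotent stem cells. Every line stably carried the MPHv2 activator helper complex and received lentiSAMv2 particles that switch on the endogenous SOX17 gene, followed by Activin A (100 ng/ml), the WNT agonist CHIRON (3 µM), FGF2 (25 ng/ml) and heparin (1 µg/ml), renewed every 48 h until day 8. No library of untreated cells was analysed here, so each comparison is between clusters of treated cells and not with the starting state.

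NODAL is a secreted TGF-beta family ligand that binds activin receptors and needs an EGF-CFC co-receptor such as TDGF1, also called Cripto. The activated receptors phosphorylate SMAD2 and SMAD3, which enter the nucleus with SMAD4 and act with FOXH1 on target genes, among them NODAL itself and its antagonists LEFTY1 and LEFTY2. The pathway is known for holding pluripotent cells in their state and for inducing mesendoderm and endoderm, and Activin A, which was in the medium of all cells, uses the same receptors without a co-receptor.

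The unit of measurement was the average of a gene in a cluster, in UMIs per 10000 UMIs of a cell. A UMI is a molecular tag that counts 1 captured transcript. The averages covered 20844 cells in 14 clusters, numbered 0 to 13, from 2808 cells in cluster 0 to 42 in cluster 13. Clusters keep their deposited numbers here. Each average pooled the cells of all libraries, so no error between cultures could be computed, no test was possible and neighbours in the order of levels cannot be told apart by any spread. Values near 0 rest on few transcripts, and the smallest positive average of any gene ranged from 1.97e-05 in cluster 1 to 0.00847 in cluster 13.

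Each cell belonged to 1 of 3 library codes. The labels hold none of these codes, which were therefore assigned to no line and are numbered here by their cells. Library 1 held 40.8% of all cells and was the largest in 7 clusters (2, 3, 5, 6, 8, 10 and 11), with 45.8% to 86.3% of their cells. Library 2 held 33.2% of all cells and was the largest in 6 clusters (0, 4, 7, 9, 12 and 13), with 44.2% to 99.4%. Library 3 was the largest in cluster 1 only, with 37.3%. A difference between clusters and a difference between libraries can therefore not be told apart in these averages. The share of ribosomal protein genes was highest in clusters 13 (28.7% of UMIs), 11 (22.5%) and 5 (22.3%), and 15.5% to 18.5% elsewhere.

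Promoter windows from RefSeq (GRCh38.p14) matched 5 of the 9 members (NODAL, GDF3, CER1, ACVR2B and SMAD7). LEFTY1, LEFTY2, TDGF1 and FOXH1 were not matched. The 250 bases before the start are shown for NODAL and GDF3, which shared a peak cluster, and for CER1, which had another. Capitals mark the core of the FOXH1 motif (TGTNNATT, or AATNNACA on the other strand), of the SMAD element (CAGAC or GTCTG) and of the SOX motif (ACAAT or ATTGT). The windows lie on the minus strand at chr10:70441682-70441931 for NODAL, chr12:7695776-7696025 for GDF3 and chr9:14722734-14722983 for CER1, and none overlaps an annotated exon of these genes. That of NODAL lies inside the longer span that GENCODE 44 gives the gene (chromosome 10, 70431936 to 70447951).
NODAL: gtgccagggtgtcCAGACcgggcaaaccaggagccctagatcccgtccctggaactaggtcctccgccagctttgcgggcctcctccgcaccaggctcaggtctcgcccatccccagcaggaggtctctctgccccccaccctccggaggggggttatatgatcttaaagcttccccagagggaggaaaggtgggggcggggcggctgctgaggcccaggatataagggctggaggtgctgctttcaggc
GDF3: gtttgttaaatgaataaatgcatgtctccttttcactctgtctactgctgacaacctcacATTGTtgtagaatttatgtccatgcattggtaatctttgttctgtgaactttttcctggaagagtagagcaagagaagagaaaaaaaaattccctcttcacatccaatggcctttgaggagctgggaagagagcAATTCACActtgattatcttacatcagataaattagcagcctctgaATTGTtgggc
CER1: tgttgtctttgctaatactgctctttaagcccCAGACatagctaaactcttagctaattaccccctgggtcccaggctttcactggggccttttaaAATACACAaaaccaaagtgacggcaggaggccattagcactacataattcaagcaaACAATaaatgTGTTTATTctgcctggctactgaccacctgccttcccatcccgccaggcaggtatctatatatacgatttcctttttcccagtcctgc

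The CER1 window held 2 matches to the FOXH1 core, 154 and 88 bases before the start, and 1 each to the SMAD element (218 bases before) and the SOX core (98 bases before). That of GDF3 held 1 match to the FOXH1 core at 56 bases and 2 to the SOX core at 190 and 10 bases. NODAL held a single SMAD element match at 237 bases and neither of the other letters. The window of ACVR2B held none of the 3 motifs, and of the 3 windows of SMAD7, 2 held the SMAD element and none the other motifs. Of 35116 windows of this length, 9.88% held the FOXH1 core, 38.0% the SMAD element and 24.6% the SOX core. No binding was measured here, and a match is only a run of letters.

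**Figure D1:**
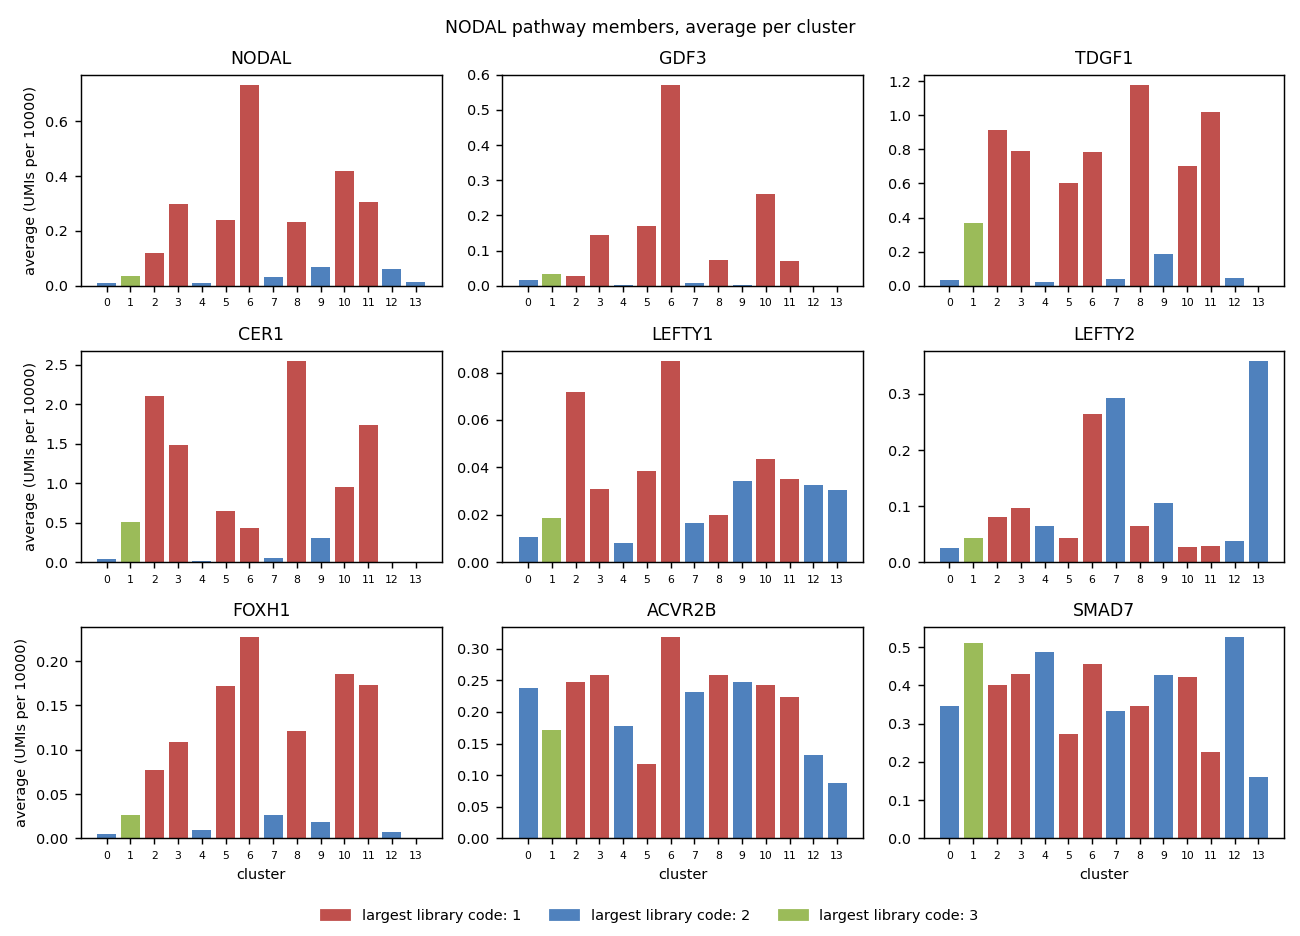
Average of the 9 members (y axis, UMIs per 10000, from 0) in each of the 14 clusters (x axis), 1 bar per cluster, coloured by the library code that holds most of its cells. NODAL, GDF3 and FOXH1 are highest in cluster 6 (0.734, 0.572 and 0.227), TDGF1 and CER1 in cluster 8 (1.18 and 2.55), and LEFTY2 in clusters 13, 7 and 6, while ACVR2B and SMAD7 stay within a narrow range.

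The members differed in how far they varied between clusters. NODAL, GDF3, TDGF1, CER1 and LEFTY2 each reached at least 2-fold above the mean of the other clusters somewhere, and FOXH1, LEFTY1, ACVR2B and SMAD7 did not. These folds are on the scale of log2(average + 0.1), which understates differences of low genes. With 0.01 added in place of 0.1, FOXH1 and LEFTY1 passed 2-fold in cluster 6 as well (1.54 and 1.25 on the log2 scale). Over the 126 pairs of a member and a cluster, 9 were at least 2-fold higher (7.14%), where 1.27% of all pairs were for the 12139 genes with a mean of at least 0.05 (0.512% over all genes). At least 2-fold lower were 21 pairs (16.7%), against 3.4% (1.26% over all genes). Because earlier results were known when the members were chosen, shares above those of all genes can follow from that choice. With the mean of at least 0.05 required, 8 of the 9 members were kept and LEFTY1 was lost. The members are described next by their role.

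NODAL, the ligand that gives the pathway its name, was highest in cluster 6 with 0.734 UMIs per 10000. It followed in cluster 10 with 0.418, cluster 11 with 0.305, cluster 3 with 0.297, cluster 5 with 0.239, cluster 8 with 0.234 and cluster 2 with 0.119. In the remaining clusters it did not exceed 0.07 (cluster 9), and it was lowest in cluster 0 with 0.0104. The median over the 14 clusters was 0.0946. Cluster 6 was therefore at 1.75 times the next cluster and at 70.9 times cluster 0, and it stood 1.79 above the mean of the other clusters on the log2 scale. With 7.8% of all cells, it held 32.9% of the NODAL signal summed over cells.

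Cluster 6 was also the cluster with the EC genes. All 7 EC markers (POU5F1, SOX2, NANOG, L1TD1, DPPA4, DNMT3B and PRDM14) had their highest average there, and summed to 12.7 UMIs per 10000 against 0.974 to 6.94 in the other clusters. POU5F1, a core pluripotency factor, stood at 3.96. Cluster 10, the next for NODAL, was also the next for the summed EC markers. SOX17 stood at 4.54 in cluster 6, below clusters 0, 7 and 13 only. Of 8 mesendoderm and endoderm markers, 5 were highest in cluster 8 (EOMES, GSC, LHX1, GATA6 and GATA4). MIXL1 was highest in cluster 11. SOX17 and FOXA2 were highest in cluster 0 and low in cluster 8, with 0.325 and 0.000238. Markers of trophoblast (GATA3, KRT7 and CGA) summed to at most 0.247 and of the neural lineage (PAX6 and SOX1) to at most 0.179 in any cluster. All these marker lists were chosen with earlier results of these data known, so they are no independent support for what a cluster is.

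GDF3, a TGF-beta family ligand known from pluripotent cells and EC, had a peak 9.21 times the mean of the other clusters, the largest such ratio among the members. Cluster 6 stood at 0.572, cluster 10 at 0.262, cluster 5 at 0.169, cluster 3 at 0.145, cluster 8 at 0.0721 and cluster 11 at 0.0699. All remaining clusters were at 0.0327 or below, and clusters 12 and 13 were at 0. In cluster 12 the 0 came from 180 cells, which allows a share of up to 1.67% of cells with a UMI, and in cluster 13 from 42 cells, which allows up to 7.14%. These limits cover counting error only. On the log2 scale cluster 6 stood 2.05 above the other clusters. It held 43.8% of the summed GDF3 signal.

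NODAL and GDF3 parted in clusters 2, 8 and 11, where NODAL kept a middle level and GDF3 was low. From cluster 6 to cluster 2, NODAL differed 6.16-fold (0.734 and 0.119) and GDF3 21.5-fold (0.572 and 0.0266). From cluster 6 to cluster 8 the ratios were 3.13 for NODAL and 7.93 for GDF3. Across the 14 clusters their log2 averages had a Pearson r of 0.92 and a Spearman rho of 0.8, as a description over clusters that share libraries.

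TDGF1, the co-receptor that NODAL needs, had a broader profile and another peak. It was highest in cluster 8 with 1.18, followed by cluster 11 with 1.02, cluster 2 with 0.911, cluster 3 with 0.79, cluster 6 with 0.787, cluster 10 with 0.7 and cluster 5 with 0.601. A step followed to 0.366 in cluster 1 and 0.187 in cluster 9. Clusters 12, 7, 0 and 4 were at 0.0448, 0.0371, 0.0358 and 0.0211. Cluster 13 was at 0 (0 of 42 cells, up to 7.14%). The first 7 clusters thus lay between 0.601 and 1.18, while the level in cluster 8 was 56.0 times that in cluster 4. On the log2 scale TDGF1 was 1.29 above the other clusters in cluster 8 and 1.06 in cluster 11, and 6 clusters were at least 2-fold below. After the columns had been rescaled by median of ratios, the peak moved from cluster 8 to cluster 11.

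ACVR2B, a type II receptor bound by activins and NODAL, showed little of this. It was highest in cluster 6 (0.318) and lowest in cluster 13 (0.0878), with a median of 0.235. In 8 other clusters (0, 2, 3, 7, 8, 9, 10 and 11) it lay between 0.223 and 0.258, and it was 0.177 in cluster 4, 0.172 in cluster 1, 0.132 in cluster 12 and 0.118 in cluster 5. The 13 clusters of at least 100 cells spanned 2.68-fold, and no cluster was 2-fold above or below the others with 0.1 added. Without that addition, cluster 13 (42 cells) stood at 0.0878 beside a mean of 0.22 in the other clusters. The receptor was therefore measured in the clusters in which NODAL and TDGF1 were nearly absent, such as cluster 0 (0.238) and cluster 7 (0.232).

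CER1, a secreted antagonist that binds NODAL and BMP ligands, varied over the widest log2 range of the members. Cluster 8 had 2.55, cluster 2 had 2.11, cluster 11 had 1.74 and cluster 3 had 1.49. Middle levels were found in cluster 10 (0.95), cluster 5 (0.647), cluster 1 (0.514), cluster 6 (0.434) and cluster 9 (0.303). Clusters 7, 0 and 4 were at 0.0574, 0.0438 and 0.0187, and clusters 12 and 13 at 0 (0 of 180 and 0 of 42 cells). On the log2 scale CER1 stood above the other clusters by 1.84 (cluster 8), 1.52 (cluster 2) and 1.2 (cluster 11), while 6 clusters were at least 2-fold below.

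CER1 and the ligands did not share a peak. In cluster 6, where NODAL and GDF3 were highest, CER1 was 0.434, and the level in cluster 8 was 5.88 times higher. For the T-box factor EOMES, a NODAL target of the mesendoderm, the same ratio was 6.4 (1.54 and 0.24), and for POU5F1 it ran the other way, with cluster 6 at 6.04 times cluster 8. Clusters 2, 3 and 8 together held 68.1% of the summed CER1 signal and 53.0% of that of TDGF1, with 28.3% of all cells. They held 34.6% of NODAL and 23.0% of GDF3. Clusters 6 and 10, with 11.6% of all cells, held 42.2% of NODAL, 53.8% of GDF3, 18.1% of TDGF1 and 8.69% of CER1. The mitotic genes TOP2A, CENPF and MKI67 had their highest sums in clusters 3 and 8, with 13.3 and 6.25. Their part in these levels was not tested.

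**Figure D2:**
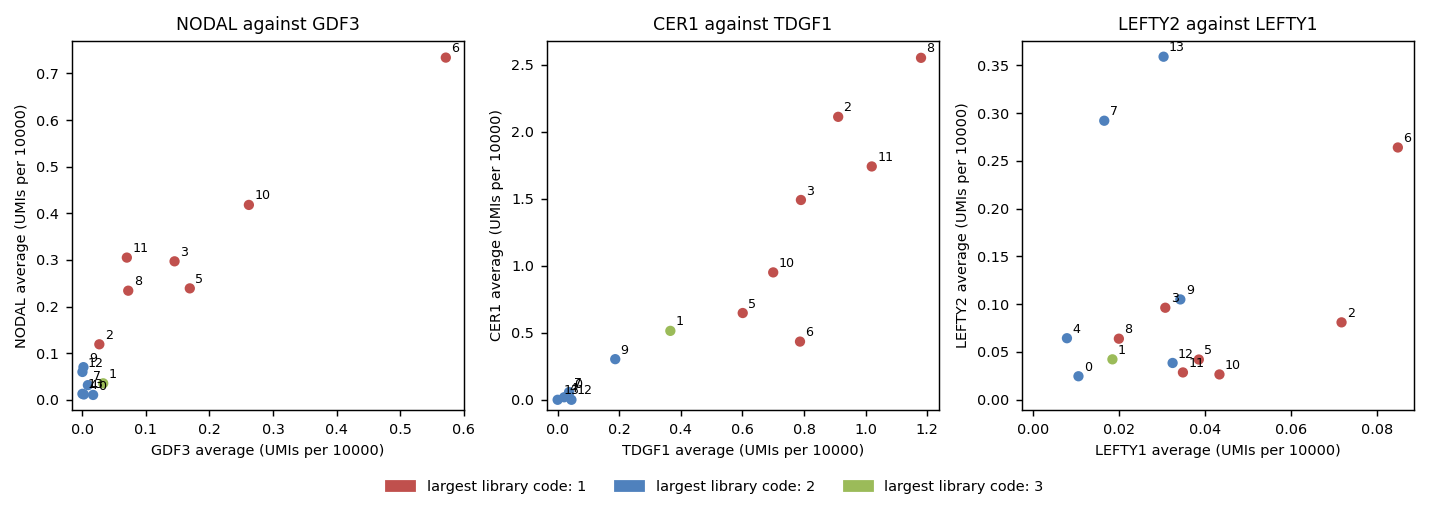
Averages of member pairs (both axes in UMIs per 10000), 1 point per cluster with its number, coloured by the library code that holds most of its cells. NODAL and GDF3 are both highest in cluster 6, CER1 and TDGF1 in cluster 8 with cluster 6 below the others at its TDGF1 level, and numbers overlap near the origin. LEFTY2 is high beside low LEFTY1 in clusters 7 and 13.

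LEFTY1 and LEFTY2 are neighbouring paralogs on the minus strand of chromosome 1 (225886282 to 225911382 and 225936598 to 225941383, GRCh38) and encode secreted inhibitors of NODAL. LEFTY1 stayed low. The highest averages were 0.0849 (cluster 6), 0.0718 (cluster 2) and 0.0434 (cluster 10), with values between 0.00792 (cluster 4) and 0.0386 (cluster 5) elsewhere. Its median was 0.0317. No cluster was 2-fold above or below the others at the pseudocount of 0.1, which is larger than every LEFTY1 average.

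LEFTY2 had a different order. Cluster 13 led with 0.359, before cluster 7 with 0.292 and cluster 6 with 0.264, and a step followed to 0.105 (cluster 9), 0.0963 (cluster 3) and 0.081 (cluster 2). Clusters 4 and 8 were at 0.0644 and 0.0639, and the remaining 6 lay between 0.0246 (cluster 0) and 0.0423 (cluster 1). Cluster 13 has 42 cells, and without it cluster 7 was the highest. On the log2 scale LEFTY2 stood above the other clusters by 1.27 (cluster 13), 1.01 (cluster 7) and 0.88 (cluster 6). With the columns rescaled, cluster 7 fell short of 2-fold (0.86).

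LEFTY2 split the clusters in which SOX17, the induced factor, was highest. SOX17 averages were 21.0 (cluster 0), 12.4 (cluster 7) and 8.52 (cluster 13). LEFTY2 was lowest of all in cluster 0 and was 11.9 times higher in cluster 7 (0.292 and 0.0246), whereas SOX17 was 1.69 times higher in cluster 0 than in cluster 7. LEFTY1 differed 1.56-fold between these clusters (0.0166 and 0.0106). Library 2 held 57.6% of cluster 0 and 48.1% of cluster 7, library 3 held 30.7% and 42.4%, and library 1 held 11.7% and 9.49%.

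The ratio of LEFTY2 to LEFTY1 compares levels per 10000 UMIs, counted at 3' ends and not per length. It was highest in clusters 7 (17.7), 13 (11.8) and 4 (8.14). Clusters 8, 3, 6 and 9 lay together at 3.06 to 3.19, and clusters 0 and 1 at 2.32 and 2.29. In clusters 12, 2 and 5 it lay between 1.09 and 1.18, and in clusters 11 and 10 LEFTY2 was the lower gene (0.82 and 0.61). Over the 14 clusters the log2 averages of the paralogs had an r of 0.23. Reads of close paralogs can be split between them in counting. None of the 411 runs of 90 bases in the last 500 bases of the reference transcript of either gene occurred in the other, while 19.8% of all such runs in LEFTY1 and 15.8% in LEFTY2 did. The library kit captures 3' ends, but the read length behind these averages is unknown here.

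FOXH1, the DNA-binding partner of SMAD2 and SMAD3, followed NODAL. Its 7 highest averages were 0.227 (cluster 6), 0.186 (cluster 10), 0.173 (cluster 11), 0.172 (cluster 5), 0.121 (cluster 8), 0.109 (cluster 3) and 0.0777 (cluster 2). In clusters 1, 7 and 9 it was 0.0268, 0.0259 and 0.0189, and in clusters 4, 12 and 0 it was 0.00899, 0.00706 and 0.00505. Cluster 13 was at 0 (0 of 42 cells). The level in cluster 6 was 45.0 times that in cluster 0. On the log2 scale the difference in cluster 6 was 0.93, just short of 2-fold, with most FOXH1 averages near or below the pseudocount.

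SMAD7, an intracellular inhibitor that is itself induced by TGF-beta signals and blocks the type I receptors, was, with ACVR2B, the most even member. It was highest in cluster 12 (0.526), cluster 1 (0.511) and cluster 4 (0.487), and lowest in cluster 13 (0.161), cluster 11 (0.227) and cluster 5 (0.272). The other 8 clusters lay between 0.333 (cluster 7) and 0.457 (cluster 6). Over the 13 clusters of at least 100 cells the span was 2.31-fold. The 3 lowest clusters were the 3 with the highest ribosomal share, and the part of that share in the result was not tested. With the columns rescaled, the highest cluster was 1 in place of 12. SMAD7 did not follow NODAL across clusters (r = 0.05).

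Read by cluster, 5 of the 9 members (NODAL, GDF3, FOXH1, LEFTY1 and ACVR2B) had their highest average in cluster 6, where 6.39% of the 12139 genes had theirs. CER1 and TDGF1 had it in cluster 8 (7.38% of genes), SMAD7 in cluster 12 (12.9%) and LEFTY2 in cluster 13 (9.39%). NODAL and GDF3 passed 2-fold upward in cluster 6 (background 1.18%), and the member median was 0.68 on the log2 scale, against -0.05 over all 12139 genes. TDGF1 and CER1 did so in cluster 8 (1.15%) and in cluster 11 (0.676%). In cluster 2 it was 1 member, CER1 (0.667%). LEFTY2 was the 1 member in cluster 7 (0.659%) and in cluster 13 (1.85%).

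The lowest clusters were 13, 12, 0 and 4, with member medians of -0.94, -0.82, -0.81 and -0.79 against -0.51, 0.05, 0.07 and 0.08 over all genes. At least 2-fold lower were 4 members in cluster 13 and 4 in cluster 4, and 3 each in clusters 0, 7, 9 and 12. The background was 23.9% in cluster 13, the cluster with the fewest cells, and 1.24% in cluster 4, 1.79% in cluster 0, 1.19% in cluster 7, 3.12% in cluster 9 and 3.13% in cluster 12. NODAL was also 2-fold lower in cluster 1 (0.387%). No member was 2-fold lower in clusters 2, 3, 5, 6, 8, 10 or 11. Clusters 0, 7 and 13 had the highest SOX17 averages and cluster 4 the highest mesenchyme genes (VIM, FN1 and HMGA2 summed to 50.4). Clusters 0, 4, 7, 12 and 13 together held 31.3% of the cells but 2.95% of the NODAL, 2.98% of the GDF3, 2.0% of the TDGF1 and 1.42% of the CER1 signal. They held 33.0% of LEFTY2, 30.5% of SMAD7 and 30.0% of ACVR2B.

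The clusters with high levels were largely those of library 1. For NODAL, TDGF1 and FOXH1, the 7 clusters in which library 1 was the largest were exactly the 7 highest. NODAL was 0.119 to 0.734 in these clusters and 0.0104 to 0.07 in the other 7, TDGF1 0.601 to 1.18 against 0.0 to 0.366, and FOXH1 0.0777 to 0.227 against 0.0 to 0.0268. This exact split held for 334 of the 12139 genes (2.75%). For GDF3 and CER1, 6 of the 7 highest clusters were of this kind, for LEFTY1 and ACVR2B 5, and for LEFTY2 and SMAD7 3. Library 1 held 45.8% of cluster 2 and 51.5% of cluster 3, against 34.2% of cluster 4 and 34.9% of cluster 1, and TDGF1 was 0.911, 0.79, 0.0211 and 0.366 in these clusters. With values per library not analysed here, cluster and library cannot be told apart.

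The share of cells with a UMI was deposited for 4 members, in the clusters for which the authors listed them. Cluster 6 (1626 cells) had NODAL UMIs in 51.1% of its cells, where 12.1% of the cells outside it did. In cluster 10 (802 cells) the NODAL shares were 40.9% inside and 14.2% outside. The GDF3 shares of cluster 6 were 51.8% inside and 8.6% outside. For TDGF1 the inside shares were 86.3% (cluster 11), 66.6% (cluster 8), 60.9% (cluster 6), 49.3% (cluster 3) and 48.1% (cluster 2), with 28.3% to 29.6% outside. Those of CER1 were 84.7% (cluster 11), 53.1% (cluster 8), 38.6% (cluster 2) and 35.7% (cluster 3), with 19.1% to 19.9% outside. Over all cells, 15.1% had a UMI of NODAL, 12% of GDF3, 30.9% of TDGF1 and 21.3% of CER1. Free RNA from lysed cells could contribute to a share, and its part was not tested.

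Detection and average were ordered differently. CER1 was found in 84.7% of the cells of cluster 11 but had a higher average in cluster 2, so that the average divided by the share of detected cells was 2.05 (cluster 11), 4.18 (cluster 3), 4.81 (cluster 8) and 5.47 (cluster 2). For TDGF1 the same quotient was 1.18 (cluster 11), 1.29 (cluster 6), 1.6 (cluster 3), 1.77 (cluster 8) and 1.89 (cluster 2). For NODAL it was 1.44 in cluster 6 and 1.02 in cluster 10, and for GDF3 1.1 in cluster 6. CER1 in cluster 2 thus had a smaller share of cells with a UMI than in cluster 11 and more signal per such cell. This was not particular to CER1. Among their listed clusters, TDGF1, EOMES (1.48), LHX1 (3.25) and MIXL1 (2.03) also had their lowest quotient in cluster 11. Cells with more UMIs detect a gene more often at an equal average. UMI totals per cell were not analysed here.

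**Figure D3:**
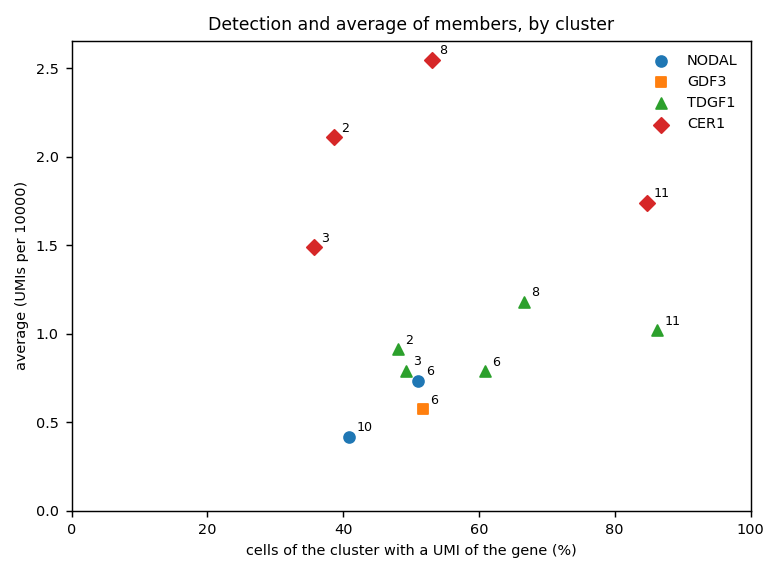
Average (y axis, UMIs per 10000, from 0) against the share of the cluster's cells with a UMI (x axis, %) for the 12 listed pairs of a member and a cluster, each labelled with its cluster. CER1 in cluster 11 lies at 84.7% and 1.74, to the right of and below cluster 2 (38.6% and 2.11).

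Members were set beside each other over the 14 clusters, as 36 pairs of log2(average + 0.1). The most alike were NODAL with FOXH1 (r = 0.96, rho = 0.92), TDGF1 with CER1 (r = 0.96, rho = 0.94), NODAL with GDF3 (r = 0.92), GDF3 with FOXH1 (r = 0.88) and TDGF1 with FOXH1 (r = 0.87). NODAL with TDGF1 gave 0.83, and GDF3 with CER1 0.47. LEFTY2 ranged from -0.33 with CER1 to 0.23 with LEFTY1. Without cluster 13 and its 42 cells, LEFTY2 had an r of 0.48 with ACVR2B (-0.05 with that cluster) and of -0.14 with CER1. The clusters share libraries and were formed from the same expression values, so these are descriptions with no test.

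Among all genes with a mean of at least 0.05, those with the pattern most like NODAL were FOXH1 (r = 0.958), ANOS1 (0.954) and LNCPRESS2 (0.95). For GDF3 they were SEPHS1 (0.964), LNCPRESS2 (0.955) and AL354821.1 (0.955), and for FOXH1 they were RAB17 (0.968), AL512358.2 (0.964) and RIT2 (0.959). CER1 was most like EOMES (0.977), TDGF1 (0.964) and PKDCC (0.961), and TDGF1 most like AC108052.1 (0.97), VRTN (0.966) and CER1 (0.964). LEFTY2 was nearest to DAPL1 (0.83), CSKMT (0.796) and RPRM (0.768, with a rho of 0.36), and LEFTY1 to AC092546.1 (0.773), AC010168.1 (0.773) and IFITM1 (0.738). For ACVR2B the nearest were ZNF551 (0.93), NFYC (0.924) and GTF3C2 (0.922), and for SMAD7 CHKA (0.95), VAV2 (0.935) and ASCC1 (0.926). All values are over 14 clusters and were the highest of 12138 genes compared, or 12139 for LEFTY1.

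The other genes of the pathway were taken from a list of 32, also chosen with earlier results known, of which 31 were measured. Over their 434 pairs with a cluster, 15 lay 2-fold or more above the other clusters (3.46%) and 30 below (6.91%), against 1.27% and 3.4% over all genes with a mean of at least 0.05. Of the 31 genes, 20 (64.5%) were never 2-fold away from the other clusters. The 64.3% found over all genes with that mean is not a like share, since only 23 of the 31 reach it. These 23 genes held all 15 and 30 pairs, which were 4.66% and 9.32% of their pairs. None of the 4 receptors, ACVR2B among them, was 2-fold away in any cluster. For the type I receptor ACVR1C this rests on the pseudocount, since its averages were low (mean 0.0289) and ran from 0.00421 in cluster 5 to 0.0926 in cluster 9, a 22-fold span over the clusters of at least 100 cells. The type II receptor ACVR2A ranged from 0.0747 (cluster 5) to 0.346 (cluster 9), and the type I receptor ACVR1B from 0.0545 (cluster 13) to 0.173 (cluster 4). The signal transducers SMAD2 (0.265 to 0.899), SMAD3 (0.0843 to 0.42) and SMAD4 (0.201 to 0.608) were likewise never 2-fold away. The added 0.1 bears on these genes too. SMAD3 was 0.0843 in cluster 11, where the mean of the other clusters was 0.254. For ACVR2A in cluster 5 these values were 0.0747 and 0.216, and for SMAD2 in cluster 13 they were 0.265 and 0.628.

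**Figure D4:**
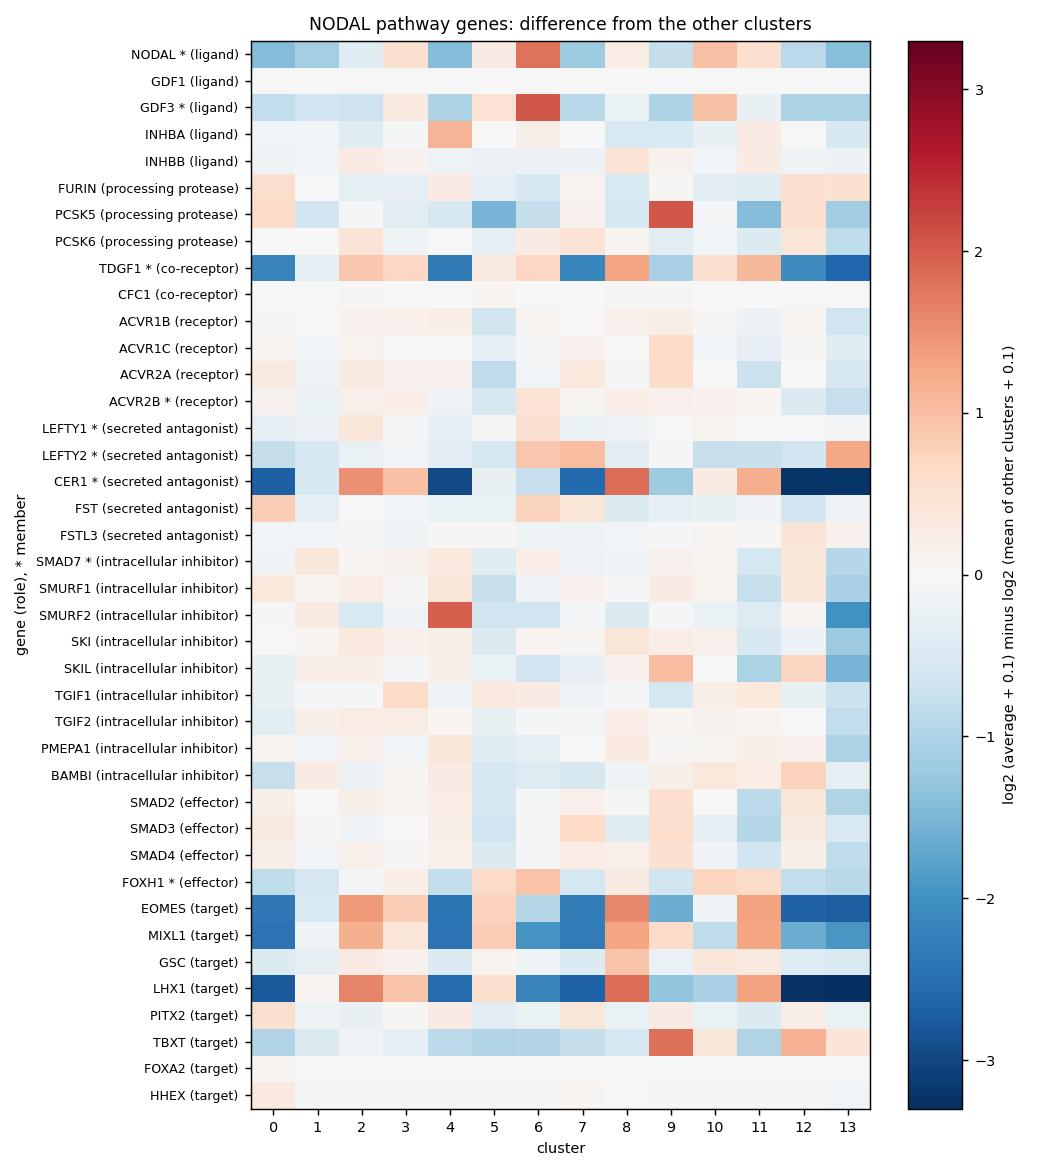
Difference of each pathway gene (rows, with its role, members marked with *) from the mean of the other clusters, in each of the 14 clusters (columns), on the log2 scale with 0.1 added (red higher, blue lower). The rows of TDGF1, CER1, EOMES, MIXL1 and LHX1 share high clusters (2, 8 and 11) and low ones (0, 4, 7, 12 and 13), while receptors and SMADs never pass 2-fold.

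Ligands other than NODAL and GDF3 were low or had other peaks. INHBA, which encodes the activin A subunit, was 0.229 in cluster 4, 1.12 above the other clusters on the log2 scale, and did not exceed 0.0946 elsewhere. INHBB stayed at 0.0517 or below and GDF1 at 0.000364 or below. The second EGF-CFC co-receptor CFC1 did not exceed 0.00592 in any cluster.

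Of the proteases that process NODAL and related precursors, PCSK5 was 1.44 in cluster 9, at least 4-fold above the other clusters (2.04 on the log2 scale), where the presomitic mesoderm genes MSGN1, TBX6 and TBXT were all highest. FURIN was 0.138 to 0.39 and PCSK6 did not exceed 0.136. The activin-binding protein FST was highest in cluster 0 (0.327) and cluster 6 (0.307) and was never 2-fold away with 0.1 added. Without that addition, its peak was 2.3 times the mean of the other clusters. Among the intracellular inhibitors, SMURF2, a ubiquitin ligase that works with SMAD7, was 3.91 in cluster 4 (1.96 on the log2 scale), and SKIL, a transcriptional co-repressor of SMADs, was 3.41 in cluster 9 (1.01). SMURF1 ranged from 0.168 (cluster 13) to 0.612 (cluster 4).

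Of the 8 target genes, 3 had the high clusters of CER1. EOMES was highest in cluster 8 (1.54), cluster 2 (1.38) and cluster 11 (1.31), LHX1 in the same clusters (3.91, 3.41 and 2.89), and MIXL1 in cluster 11, cluster 8 (both 1.87) and cluster 2 (1.72). All 3 were at least 2-fold higher in these clusters and at least 2-fold lower in clusters 0, 4, 7, 12 and 13. In cluster 6, where NODAL was highest, LHX1 was 0.213 and MIXL1 0.141, both at least 2-fold below the other clusters, and EOMES was 0.24 (-0.93). TBXT was highest in cluster 9 (0.541). FOXA2 did not exceed 0.00457 and HHEX 0.0314. All cells had received Activin A, so a response to it was not compared.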

How the data were processed

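Cells of the 3 lines were captured on day 8 with a droplet-based 3' kit. Cell Ranger 7.0, Seurat 4.1.1 and the build GRCh38 are named in the submitters' processing notes. According to the methods, the libraries were brought to equal depth, which drops reads of the deeper ones, before cells under 200 genes or above 10% mitochondrial reads and doublets were left out and the rest clustered. Which gene annotation was used is not stated there.

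The authors deposited average expression per cluster as mean UMIs per 10000, each column summing to 10000, with libraries pooled. A cell count for each cluster and library code was also deposited, as was the fraction of cells with a UMI for listed cluster markers. Their fold changes and p-values compare a cluster with other cells and were not used. All 6723 listed pairs lay above the mean of the other clusters weighted by cells, so cluster numbers match between the tables. The 3 codes matched no sample label. The methods state a mean read depth per cell and refer to coverage statistics for each sample, which were not used here. Depth per cluster was not analysed.

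Each average and the unweighted mean of the 13 other clusters were log2 transformed after 0.1 had been added, and their difference was taken. A difference of at least 2-fold was counted as a size and not tested. The calculation was tested on simulated averages. The line of each sample was read from its title, from which another label of 1 sample differs. Members and lists were chosen with earlier results of these data known. Named were all members, in the wider list the 3 genes of each role with the highest mean and those at least 4-fold higher in a cluster, and the 3 genes most like each member. INHBB, GDF1, CFC1, TBXT, FOXA2 and HHEX were named after their values were seen, and ACVR1C was named outside this rule. The runs of 90 bases compared between LEFTY1 and LEFTY2, and the use of library codes, were also chosen with the data in hand. Gene positions came from GENCODE 44 (GRCh38). The software was Python 3.11.15 with numpy 2.4.6, pandas 2.3.3, scipy 1.17.1 and matplotlib 3.10.9.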

Additional observations from a re-analysis of the deposited data

How the results depend on the processing

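No paired analysis was possible because each cell line has 1 library and the averages carry no library. With no replicates, stability was judged by the side of 2-fold on which a value fell. Adding 0.01 in place of 0.1 gave 19 higher and 44 lower member pairs (9 and 21 with 0.1), and 23 and 68 pairs of the other pathway genes (15 and 30 with 0.1). At this setting LEFTY1 (1.25) and FOXH1 (1.54) in cluster 6 passed 2-fold. Adding 1 left 1 higher and 0 lower member pairs and 3 and 5 other pathway pairs, and NODAL (0.6), GDF3 (0.57), TDGF1 (0.62) and LEFTY2 (0.32) fell short of 2-fold in their peak clusters. CER1 in cluster 8 (1.12) did not. These averages are mostly below 1, so a pseudocount of 1 compresses them by construction. With only the 9 clusters whose largest library holds at most 70% of the cells, a choice made after seeing the data, there were 13 lower member pairs of 81 (16.0%) and 8 higher and 13 lower other pathway pairs of 279 (2.87% and 4.66%), out of fewer clusters compared. LEFTY2 then peaked in cluster 7 (1.1) and SMAD7 in cluster 1. With the minimum mean of 0.05, weighting by cells, rescaling and a minimum of 100 cells, the counts stayed within 1.5 times. Rescaling gave 8 higher member pairs, without LEFTY2 in cluster 7, and 24 lower other pathway pairs, and the minimum of 100 cells gave 17 lower member and 21 lower other pathway pairs. LEFTY1 had no value with the minimum mean, nor LEFTY2 in cluster 13 with the minimum of cells. Rescaling moved the median of all genes by 0.32 in cluster 11, 0.29 in cluster 13, 0.26 in cluster 5, -0.17 in cluster 9, -0.14 in cluster 4, -0.13 in cluster 0 and -0.12 in cluster 12.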
